A study of Mus musculus with 36 samples.

Results

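The mRNA levels of 10 genes of hepatic lipoprotein particles were examined in mouse liver: *Apob*, *Mttp*, *Apoa1*, *Apoa2*, *Apoa4*, *Apoa5*, *Apoc1*, *Apoc2*, *Apoc3* and *Apoe*. They were found by their gene names among the 54532 genes of the count table, where each name occurs once, and all 10 were among the 17994 tested genes, whose counts summed to 100 or more over all libraries. They were chosen as a family by name and not by a rule on their values, but with earlier results of these data known.

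Livers came from male mice 2 to 3 months old, on normal chow, under a cycle of 12 h light and 12 h dark. Mice of the line B6.129S1-Thrbtm1Df/J, kept on a C57Bl/6NCrl background, lack functional thyroid hormone receptor beta (THRB) of both isoforms when homozygous (THRB-/-, called THRB KO here). The controls, called THRB WT here and WT in the labels, were not wild type but heterozygous (THRB+/-), so both groups carried the altered allele, and the deletion was not restricted to the liver. At each of 6 zeitgeber times (ZT, hours after lights on: ZT2, ZT6, ZT10, ZT14, ZT18 and ZT22), 3 mice per genotype were killed, which gives 18 mice per genotype and 36 libraries, 1 per mouse.

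Apolipoproteins are the protein coats of the particles that carry lipids in blood. The hepatocyte loads triglycerides onto apolipoprotein B as it is made, with the help of the microsomal triglyceride transfer protein encoded by *Mttp*, and releases the particles as very low density lipoprotein (VLDL). High density lipoprotein (HDL) is built around apolipoproteins A-I and A-II, while the small exchangeable apolipoproteins A-V, C-I, C-II, C-III and E move between particles and set how fast lipoprotein lipase and hepatic receptors clear them. Thyroid hormone is known to lower plasma cholesterol and to act on several of these steps.

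Total counts per library ranged from 29063273 to 42530551. Values are given as CPM (counts scaled to the same library size with TMM factors, which ranged from 0.941 to 1.065) or, where genes are compared with each other, as TPM (counts per base of exon length, scaled to the same total in every library). *Thrb*, the targeted gene, ran from 24.3 through a median of 27.9 to 38.5 CPM in THRB WT and from 26.1 through 31.9 to 37.7 CPM in THRB KO mice. Its count was thus not lower in the libraries labelled KO (log2 fold change 0.13, SE 0.053, unadjusted p = 0.0218, adjusted p = 0.309, edgeR). In this model DNA binding by the receptor is impaired, and a count over the whole gene does not show which part of the transcript is altered, so *Thrb* does not check the labels here and the genotypes are those of the labels. *Dio1*, a deiodinase gene and a known target of THRB in liver, averaged 94.4 ± 32.0 CPM in THRB WT against 48.3 ± 12.3 CPM in the KO (SD, n = 18 each), or -0.97 in log2 fold change (SE 0.137, adjusted p = 4.19e-05, edgeR's quasi-likelihood test adjusted for time). The clock genes *Nr1d1*, *Dbp*, *Per2* and *Arntl* had fitted peaks at 7.33, 9.71, 15.02 and 22.0 h in THRB WT mice. The summed level of 5 hepatocyte markers ran from 57770 to 83270 CPM in THRB WT and from 64150 to 89530 CPM in THRB KO mice. *Alb* made up most of it (mean 56020 and 59530 CPM). Its log2 fold change was 0.09, those of *Cps1* and *Fgb* were 0.10 and 0.01, and those of *Ttr* and *Serpina1c* -0.14 and -0.15. Of 41 listed markers of liver cell types and of other tissues none of the 35 that were tested was called between genotypes, against 0.95% of all tested genes. At an unadjusted p under 0.05 in edgeR there were 4, against 12.1% of all. Of these, 2 were among the 5 bile duct markers, whose median log2 fold change was -0.19. In bulk liver, fewer cells of a type and less RNA per cell cannot be told apart.

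Of the genes, 4 lie together on chromosome 9 of GRCm38, in the order *Apoa1*, *Apoc3*, *Apoa4* and *Apoa5* over 43.339 kb, with *Apoc3* on the minus strand and the others on the plus strand. Another 3 lie on the minus strand of chromosome 7 with *Apoc4* between them, in the order *Apoc2*, *Apoc4*, *Apoc1* and *Apoe* over 27.609 kb. *Apob*, *Mttp* and *Apoa2* stand alone on chromosomes 12, 3 and 1. The positions and exon lengths of all 10 in the count table equal those of GENCODE release M21.

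The sequences shown are the 250 bases before the RefSeq start site of *Apoa5*, the gene whose level followed the time of day in both genotypes, and of *Apoa2* and *Apoe*, which were the highest per length and were called for no rhythm. Each is written in the direction of the gene from RefSeq's GRCm38.p6, in lower case, with matches to searched motifs in capitals. *Apoa5* is at chr9:46268383-46268632 on the plus strand, *Apoa2* at chr1:171224804-171225053 on the plus strand and *Apoe* at chr7:19699189-19699438 on the minus strand. None of these windows overlaps an exon of the GENCODE annotation.
Apoa5: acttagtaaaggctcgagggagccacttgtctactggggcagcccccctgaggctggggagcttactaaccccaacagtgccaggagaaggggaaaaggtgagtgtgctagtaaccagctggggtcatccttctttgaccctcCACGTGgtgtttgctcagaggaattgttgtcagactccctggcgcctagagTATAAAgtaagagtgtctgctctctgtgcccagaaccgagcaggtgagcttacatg
Apoa2: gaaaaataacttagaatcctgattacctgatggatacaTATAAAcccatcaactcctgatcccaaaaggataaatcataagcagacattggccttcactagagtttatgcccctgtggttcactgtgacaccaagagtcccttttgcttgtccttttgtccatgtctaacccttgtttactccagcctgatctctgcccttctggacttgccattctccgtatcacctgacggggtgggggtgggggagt
Apoe: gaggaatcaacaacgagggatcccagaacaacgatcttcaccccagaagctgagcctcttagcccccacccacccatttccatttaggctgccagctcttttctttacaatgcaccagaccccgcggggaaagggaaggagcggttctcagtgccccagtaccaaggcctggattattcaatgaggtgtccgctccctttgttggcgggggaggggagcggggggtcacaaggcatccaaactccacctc
In the window of *Apoa5* the E-box CACGTG, the letters bound by clock proteins of the CLOCK and BMAL1 type, lies 107 to 102 bases before the start site, and TATAAA, the letters of a TATA box, 56 to 51 bases before it. The window of *Apoa2* holds TATAAA farther away, from 212 to 207 bases before the start, and that of *Apoe* holds none of the letters searched. Of 32851 windows of equal length in the RefSeq table, 6.02% hold the E-box and 12.4% hold TATAAA. Of the 10 genes 8 had a window in this table, and *Apoc1* and *Apoc3* did not. The RefSeq start of *Mttp* lay 1550 bases and that of *Apoa4* 148 bases from the start in the count table. All 250 bases of both windows were annotated exon, so neither is a clean stretch upstream of the gene as counted. In the windows of *Apoc2*, *Apoa1* and *Apob*, 109, 50 and 29 bases were annotated exon. *Apoa5* was the only one of the 8 with an E-box. TATAAA also stood 60 to 55 bases before the start of *Apob*, and the nuclear receptor half-site AGGTCA, found in 14% of all windows, 115 to 110 bases before that of *Apoc2*. The D-box TTANGTAA, the HNF4 motif CAAAGTCCA, the ROR element (AANT followed by AGGTCA) and direct repeats of AGGTCA with 1 or 4 bases between them, which 0.0152% to 2.06% of all windows hold, matched in none of the 8 on either strand. A match is a description of letters and not a binding site, and other letters or other stretches were not searched.

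The 10 genes covered a wide range of levels. They took from 4.47% to 5.83% of all counts of a library, of which *Apoe* alone took 2.04% to 2.85%, and in THRB WT mice they held 8.906% of all TPM on average. Per length, *Apoa2*, which encodes the second major protein of HDL, was the highest in THRB WT mice with 31772 ± 3395 TPM (SD, n = 18). *Apoe*, the ligand for hepatic uptake of remnant particles, followed with 25148 ± 1410 TPM (SD, n = 18), and although the ranges of both overlapped, *Apoa2* was above *Apoe* in 18 of 18 mice. *Apoa1*, the structural protein of HDL and activator of lecithin-cholesterol acyltransferase, came next with 14199 ± 1683 TPM (SD, n = 18). *Apoc1*, a small inhibitor of lipolysis and receptor uptake, had 11884 ± 1156 TPM (SD, n = 18), and its range overlapped that of *Apoa1*, which was the higher in 16 of 18 mice.

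Lower in the order, the ranges of most neighbours were apart. *Apoc3*, an inhibitor of lipoprotein lipase and of remnant uptake, had 4546 ± 646 TPM (SD, n = 18), and *Apoa5*, which promotes lipolysis by lipoprotein lipase, had 835 ± 137 TPM (SD, n = 18). *Apob*, of whose protein 1 copy sits in each VLDL particle, had 476 ± 55.0 TPM (SD, n = 18). Among the genes of the exchangeable proteins, it was below *Apoe*, *Apoc1*, *Apoc3* and *Apoa5* and above *Apoc2*. *Apoa4*, best known from the intestine, and *Mttp* could not be ordered: they had 93.7 ± 44.8 and 93.0 ± 13.1 TPM (SD, n = 18 each), their ranges overlapped, and *Apoa4* was the higher in 5 of 18 mice. *Apoc2*, the obligate cofactor of lipoprotein lipase, was the lowest with 11.8 ± 2.62 TPM (SD, n = 18), a mean 2704 times below that of *Apoa2*.

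**Figure D1:**
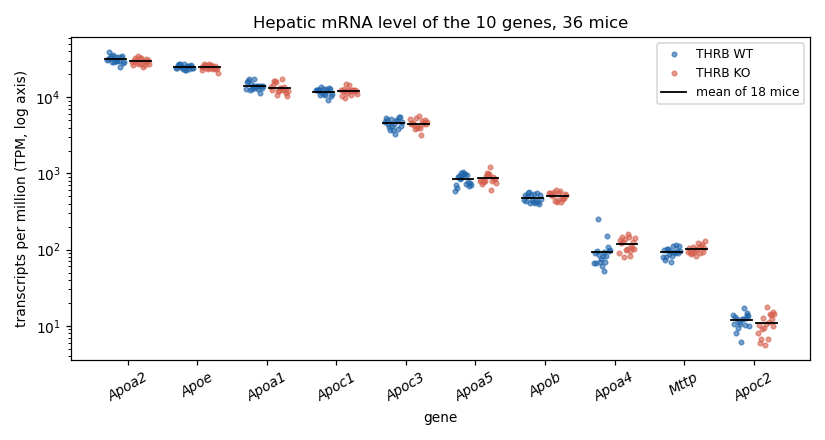
TPM (log axis) of the 10 genes, ordered by their mean in THRB WT mice; each point is 1 mouse (18 THRB WT in blue, 18 THRB KO in red) and black lines are means. The genes run from *Apoa2* at 31772 TPM to *Apoc2* at 11.8 TPM in THRB WT mice, the clouds of both genotypes overlap for every gene, and 1 THRB WT mouse stands above the others for *Apoa4*.

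The low value of *Apoc2* has a limit in the annotation. Of its exon bases, 79.5% (646 bases) are also exon of *Gm44805*, a protein-coding model on the same strand that was itself given 0 to 4 counts per library. Reads that match more than 1 gene can be dropped or split by a counter, and how they were treated is not given in the sources used here, so *Apoc2* (73 to 232 counts per library) and its order among the genes are uncertain. *Apoa4* shares 69.8% of its exon bases with *Gm47528* and *Gm10680*, *Apoa5* shares 20.8% with *Gm47544*, and *Mttp* shares 9.5% with *Trmt10a* and *Gm43691*, all on the opposite strand. The libraries keep no strand, so reads of such partners cannot be told apart, and the level of *Apoa4* is uncertain in the same way as that of *Apoc2*. *Gm47528* was given 1 to 28 counts per library and *Gm10680* 0. *Apob*, *Apoa1*, *Apoa2*, *Apoc1*, *Apoc3* and *Apoe* share no exon bases with another gene of GENCODE M21.

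The first comparison asked which of the genes followed the time of day within a genotype. In THRB WT mice 1 of the 10, *Apoa5*, passed the test of a 24-h sine wave, against 33.1% of all tested genes. In THRB KO mice 2 of the 10 passed, *Apoa5* and *Mttp*, against 28.9% of all. The difference of the rhythm between genotypes passed for none of the 10 and for 0% of all genes by edgeR and by DESeq2, while at an unadjusted p under 0.05 it passed for 0 of the 10 and 3.07% of all.

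*Apoa5* (chromosome 9, from 46268633 to 46271919) was lowest at ZT2 in both genotypes and highest at ZT14, shortly after lights off, when mice begin to feed. In THRB WT mice it had 716, 821 and 795 CPM at ZT2, 1087, 1047 and 962 CPM at ZT6, and 1077, 1232 and 1169 CPM at ZT10. At ZT14 it had 1292.5, 1112 and 1176 CPM, at ZT18 919, 1047 and 924 CPM, and at ZT22 872, 871 and 877 CPM. All 9 mice from ZT6 to ZT14 were above all 3 at ZT2 and all 3 at ZT22. The mean rose 1.54-fold from ZT2 (777 CPM) to ZT14 (1194 CPM), with an adjusted p of 4.4e-05 for the rhythm (edgeR's quasi-likelihood test, Benjamini-Hochberg over 17994 genes).

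In THRB KO mice *Apoa5* had 916, 970.4 and 813 CPM at ZT2, 911, 934 and 899 CPM at ZT6, and 1157, 1176 and 1135 CPM at ZT10. It had 1270.4, 1101 and 1299.7 CPM at ZT14, 796, 967 and 1051 CPM at ZT18, and 1044, 903 and 861 CPM at ZT22. All 6 mice at ZT10 and ZT14 were above all 12 at the other times. The mean at ZT14 (1224 CPM) was 1.36 times that at ZT2 (899.8 CPM), with an adjusted p of 0.00549 from edgeR's test. Without the mice of letter c in the labels the adjusted p in THRB KO was 0.173. A sine wave fitted to variance-stabilised log2 values had an amplitude of 0.29 (SE 0.043) and a peak at 12.0 h (SE 0.555) in THRB WT, and an amplitude of 0.22 (SE 0.043) and a peak at 12.6 h (SE 0.743) in THRB KO mice. The peaks differed by 0.542 h (SE 0.928, unadjusted p = 0.563) and the amplitudes by -0.07 (unadjusted p = 0.228), differences within their errors, and the adjusted p was 0.979 for the peak and 1 for the amplitude.

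*Mttp* (chromosome 3, from 138089854 to 138144968) was called rhythmic in THRB KO mice (adjusted p = 0.0421) and not in THRB WT mice (adjusted p = 0.339). In THRB KO mice its mean was 322 CPM at ZT18 and 270.2 CPM at ZT6, a 1.19-fold difference with overlap between the mice, and in THRB WT mice 297 CPM at ZT22 and 246 CPM at ZT2, a 1.21-fold difference. The fitted amplitudes of 0.15 (SE 0.050) in THRB KO and 0.10 (SE 0.050) in THRB WT, with peaks at 17.5 h (SE 1.31) and 18.5 h (SE 1.84), were within their errors of each other. The call was lost in each of 6 other settings, with an adjusted p from 0.0646 to 0.267, including each letter of mice left out in turn.

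The other 8 genes were not called in either genotype. Their means at the highest sampling time were 1.085 to 2.00 times those at the lowest. The largest of these folds was that of *Apoa4* in THRB WT and rested on the mouse described below. The smallest was that of *Apoe* in THRB WT, from 24361 CPM at ZT14 to 26437 CPM at ZT6. *Apoc2* in THRB KO mice had a mean of 2.997 CPM at ZT2 and 5.39 CPM at ZT18 without overlap of the mice (unadjusted p = 0.0419, adjusted p = 0.111, edgeR). *Apoa1* in THRB KO mice had a mean of 6359 CPM at ZT22 and 9204 CPM at ZT6 without overlap (adjusted p = 0.385, edgeR). The mice at the highest and lowest times also did not overlap for *Apoa4* and *Apoc2* in THRB WT, *Apob* in THRB KO and *Apoc3* in both genotypes. These times were picked as the extremes, and the share of all genes without such overlap was not taken. For *Apoa1* a test with the 6 times as separate levels, which does not require a sine wave, gave an adjusted p of 0.0132 in THRB KO mice. In these mice that test called 3674 of the 17994 tested genes, and 2 of the genes examined here. *Mttp* was not among them (adjusted p = 0.267 in that test). In THRB WT mice the test called 4001 of all tested genes and 1 of the genes examined here.

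**Figure D2:**
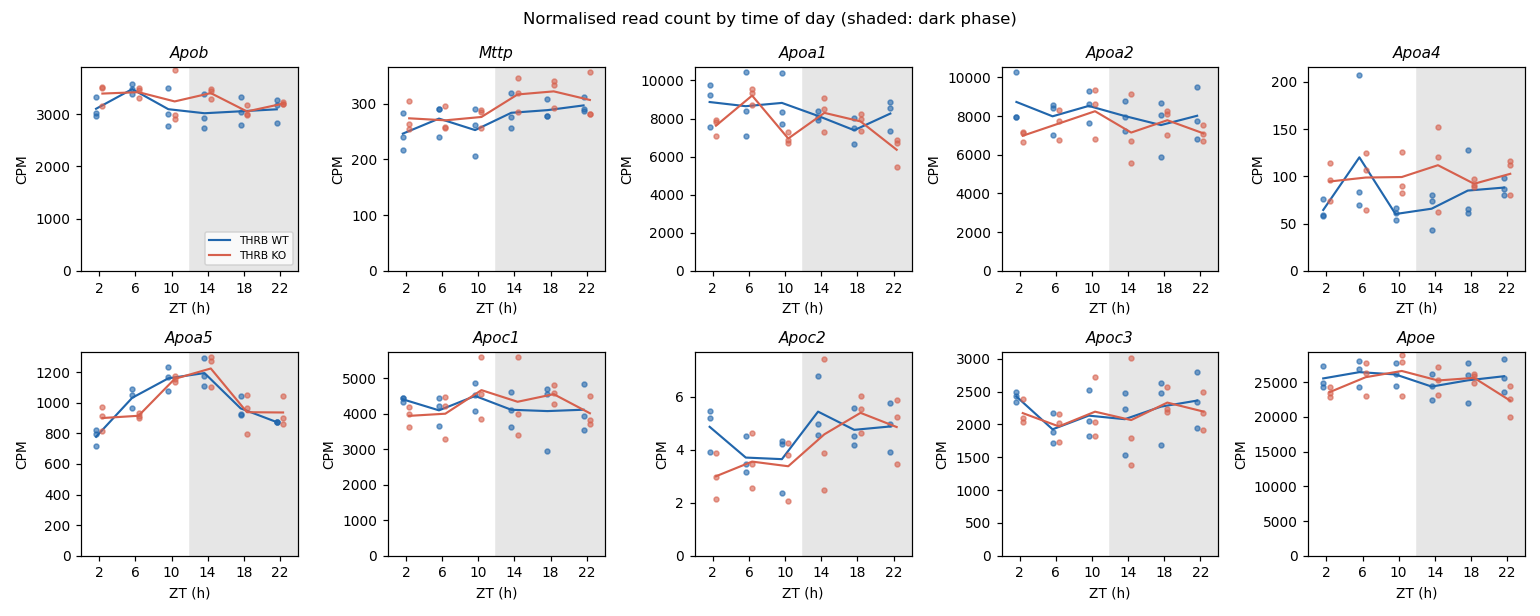
CPM of the 10 genes by zeitgeber time (ZT, hours after lights on; shaded, dark phase); each point is 1 mouse, 3 per genotype and time, and lines join the means of THRB WT (blue) and THRB KO (red) mice, with all axes from 0. *Apoa5* rises from ZT2 to ZT14 and falls again in both genotypes, from 777 to 1194 CPM in THRB WT and from 899.8 to 1224 CPM in THRB KO, while *Apob* and *Apoe* stay nearly level.

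The second comparison asked whether the loss of THRB changed the level of these genes. With sampling time in the model, none of the 10 genes was called, against 0.95% of all tested genes (171 of 17994), and DESeq2 called 306 genes, again with none of the 10. At an unadjusted p under 0.05 there were 3 of the 10, *Apoa4*, *Mttp* and *Apoa1*, against 12.1% of all genes, and 5 of the 10 had a log2 fold change above 0, against 49.5% of all. The median log2 fold change of the 10 was -0.01, and that of all genes 0.00. With the sampling times pooled, none of the 10 was called, against 0.361% of all genes, and 1 of the 10 had an unadjusted p under 0.05, against 7% of all. At single times, none of the 10 was called at ZT2, ZT6, ZT10, ZT14, ZT18 or ZT22, against 0.0278%, 0.0111%, 0.0167%, 0.0167%, 0.0222% and 0.0222% of all genes, with 3 mice against 3.

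Among the genes of particle assembly, *Apob* (chromosome 12, from 7977648 to 8016835) ran from 2739 through a median of 3112 to 3578 CPM in THRB WT and from 2911 through 3260 to 3841 CPM in THRB KO mice. The ranges overlapped over most of their width, and the log2 fold change was 0.07 (SE 0.039, adjusted p = 0.524, edgeR's quasi-likelihood test), with a 95% confidence interval that runs from a decrease of 0.947% to an increase of 10.6%. This was the smallest SE among the 10 genes. *Mttp* ran from 205 through 280.5 to 319 CPM in THRB WT and from 254 through 286 to 358 CPM in THRB KO mice. Its group mean was higher in THRB KO at 5 of 6 sampling times, with a log2 fold change of 0.10 (SE 0.048, unadjusted p = 0.0349, adjusted p = 0.366), an interval from 0.548% to 15.02% higher. When mice of the same time and letter were set side by side, *Mttp* was higher in THRB KO in 14 of 18 pairs, by a mean log2 of 0.12 for letter a, 0.20 for letter c and 0.00 for letter b.

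Among the genes of HDL, *Apoa1* (chromosome 9, from 46228580 to 46230466) ran from 6643 through 8215 to 10432 CPM in THRB WT and from 5473 through 7574 to 9559 CPM in THRB KO mice. Its log2 fold change was -0.12 (SE 0.059, unadjusted p = 0.0453, adjusted p = 0.400), an interval from 15.4% to 0.187% lower. The difference was uneven over the day. At ZT10 it had 7710, 8354 and 10392 CPM in THRB WT and 6692, 6880 and 7273 CPM in THRB KO mice, or -0.34 in log2 (SE 0.128, unadjusted p = 0.0116, adjusted p = 1). Without the THRB WT mouse with letter c, that value was -0.21. At ZT22 it had 8866, 7354 and 8560 CPM in THRB WT and 6872, 5473 and 6731 CPM in THRB KO mice, or -0.38 in log2 (SE 0.128, unadjusted p = 0.00612, adjusted p = 0.747). The groups did not overlap at these times, which held for all mice of THRB KO below all of THRB WT in 3.97% of tested genes at ZT10 and 4.86% at ZT22. At ZT6, ZT14 and ZT18 the mean of *Apoa1* was higher in THRB KO, by a log2 of 0.03 to 0.09. The test that the genotype difference varies with time gave an unadjusted p of 0.0307 and an adjusted p of 1, and no gene was called in that test by edgeR or DESeq2, with 2.69% of genes at an unadjusted p under 0.05 in edgeR.

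*Apoa2* (chromosome 1, from 171225054 to 171226379) ran from 5905 through 7994 to 10277 CPM in THRB WT and from 5594 through 7139 to 9321 CPM in THRB KO mice. Its mean was lower in THRB KO at 5 of 6 times, with a log2 fold change of -0.12 (SE 0.063, unadjusted p = 0.0634, adjusted p = 0.449) and an interval from 15.9% lower to 0.497% higher. The estimate was close to that of *Apoa1*, and neither passed.

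*Apoa4* (chromosome 9, from 46240696 to 46243459), which is made by the intestine and, in the mouse, also by the liver, had the largest log2 fold change and the largest SE. In THRB WT mice it had 58.9, 76.4 and 57.9 CPM at ZT2, 83.9, 207 and 69.5 CPM at ZT6, and 60.7, 66.1 and 53.6 CPM at ZT10. It had 74.0, 43 and 80.3 CPM at ZT14, 61.7, 65.5 and 128 CPM at ZT18, and 98.0, 80.1 and 86.3 CPM at ZT22. A single mouse, the one with letter b at ZT6, was thus far above the other 17, which had a median of 69.5 CPM.

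In THRB KO mice *Apoa4* had 73.8, 114 and 96.2 CPM at ZT2, 125, 106 and 64.7 CPM at ZT6, and 126, 82.1 and 89.8 CPM at ZT10. It had 153, 120.3 and 62.3 CPM at ZT14, 88.2, 97.6 and 90.7 CPM at ZT18, and 112, 80.4 and 116 CPM at ZT22. The means were higher in THRB KO at 5 of 6 times, all but ZT6, and the mice did not overlap at ZT10, where all THRB KO mice were above all THRB WT mice in 3.98% of tested genes. The log2 fold change was 0.35 (SE 0.142, unadjusted p = 0.0191, adjusted p = 0.296, edgeR's quasi-likelihood test), an increase of 27.4% with an interval from 4.32% to 55.7%. At ZT14 the difference was 0.76 in log2 (SE 0.335, unadjusted p = 0.0301) and at ZT10 0.72 (SE 0.335, unadjusted p = 0.0394), and the adjusted p was 0.928 and 1. The value at ZT14 fell to 0.47 without the THRB KO mouse with letter a at that time, so these times cannot be ordered.

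The call for *Apoa4* turned on 1 library. Without the mouse with letter b at ZT6 of THRB WT, the log2 fold change was 0.46 with an adjusted p of 0.0375 (edgeR's quasi-likelihood test), while without any other single library the adjusted p lay between 0.174 and 0.391. By letter, mice of the same time set side by side differed by a mean log2 of 0.62 for letter a (higher in THRB KO in 6 of 6 pairs), 0.33 for letter b (5 of 6) and 0.16 for letter c (3 of 6). Without the mice of letter a the log2 fold change of *Apoa4* was 0.21, with an adjusted p of 0.863 from edgeR. With the THRB WT mouse with letter b at ZT6 left out, 236 of all tested genes were called, against 171 with it. The library of that mouse had 64.3 CPM of *Fabp2* and 0.263 CPM of *Vil1*, markers of the intestine, within the 45.0 to 70.6 CPM and 0 to 0.274 CPM of the other THRB WT mice. Its summed level of bile duct markers was 63.6 CPM, the highest of the THRB WT mice, whose lowest was 34.2 CPM. This was the only listed marker set for which that library had the highest sum of the THRB WT mice. The part of these in the level of *Apoa4* was not tested.

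Among the regulators of lipolysis, *Apoa5* had nearly the same level in both genotypes. It ran from 716 through 1005 to 1292.5 CPM in THRB WT and from 796 through 969 to 1299.7 CPM in THRB KO mice, with a log2 fold change of 0.02 (SE 0.042, adjusted p = 0.891) and an interval from 4.26% lower to 7.63% higher. At ZT2 it was higher in THRB KO by a log2 of 0.21 (SE 0.097, unadjusted p = 0.0375, adjusted p = 0.864), with overlapping mice. At ZT6 all THRB KO mice were below all THRB WT mice, as in 4.2% of tested genes, with a log2 fold change of -0.17 (SE 0.097, unadjusted p = 0.0821, adjusted p = 1).

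*Apoc2* (chromosome 7, from 19671579 to 19677941) ran from 2.36 through 4.502 to 6.79 CPM in THRB WT and from 2.07 through 3.88 to 7.40 CPM in THRB KO mice. Its log2 fold change of -0.16 (SE 0.129, adjusted p = 0.690) had an interval from 25.2% lower to 7.60% higher, the widest after that of *Apoa4*. Its coefficient of variation over the mice was 22.8% for THRB WT and 35.8% for THRB KO, where counting error alone at the median count gives 8.01%. At ZT2 it had 5.46, 3.93 and 5.19 CPM in THRB WT and 2.97, 3.88 and 2.14 CPM in THRB KO mice, or -0.69 in log2 (SE 0.321, unadjusted p = 0.0391, adjusted p = 0.864). These groups did not overlap, by a margin of only 3.88 to 3.93 CPM.

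*Apoc3* (chromosome 9, from 46232933 to 46235636) ran from 1539 through 2287 to 2804 CPM in THRB WT and from 1385 through 2129 to 3016 CPM in THRB KO mice, and *Apoc1* (chromosome 7, from 19689481 to 19692660) from 2961 through 4383 to 4873 CPM and from 3291 through 4204 to 5594 CPM. Their log2 fold changes of -0.03 (SE 0.081, adjusted p = 0.934) and 0.01 (SE 0.066, adjusted p = 0.973) changed sign when the mice of some letters or single libraries were left out, so no direction can be given for either. The intervals, from 12.4% lower to 9.97% higher for *Apoc3* and from 8.24% lower to 10.4% higher for *Apoc1*, bound the size of a difference at this depth and spread. *Apoe* (chromosome 7, from 19696109 to 19699188) ran from 21982 through 25808 to 28403 CPM in THRB WT and from 20041 through 24634 to 28846 CPM in THRB KO mice, with a log2 fold change of -0.04 (SE 0.043, adjusted p = 0.747) and an interval from 8.76% lower to 3.0% higher.

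At ZT2, early in the light phase, *Apoa2*, *Apoc1*, *Apoc2* and *Apoe* were each lower in all 3 THRB KO mice than in all 3 THRB WT mice, which was the case for 6.65% of all tested genes. *Apoa2* had 7950, 7958 and 10277 CPM in THRB WT and 7101, 6670 and 7177 CPM in THRB KO mice. *Apoe* had 24916, 24336 and 27350 CPM in THRB WT and 24303, 22859 and 23505 CPM in THRB KO mice. The log2 fold changes at ZT2 were -0.32 (SE 0.160) for *Apoa2*, -0.16 (SE 0.169) for *Apoc1*, -0.69 for *Apoc2* and -0.12 (SE 0.107) for *Apoe*, and the adjusted p was 0.864 or above for each. Of these 4 genes, *Apoa2*, *Apoc1* and *Apoe* are not independent, since their levels moved together from library to library. *Apoc2* followed them less, with correlations from 0.173 (*Apoe*) to 0.366 (*Apoa2*) over the 36 libraries.

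**Figure D3:**
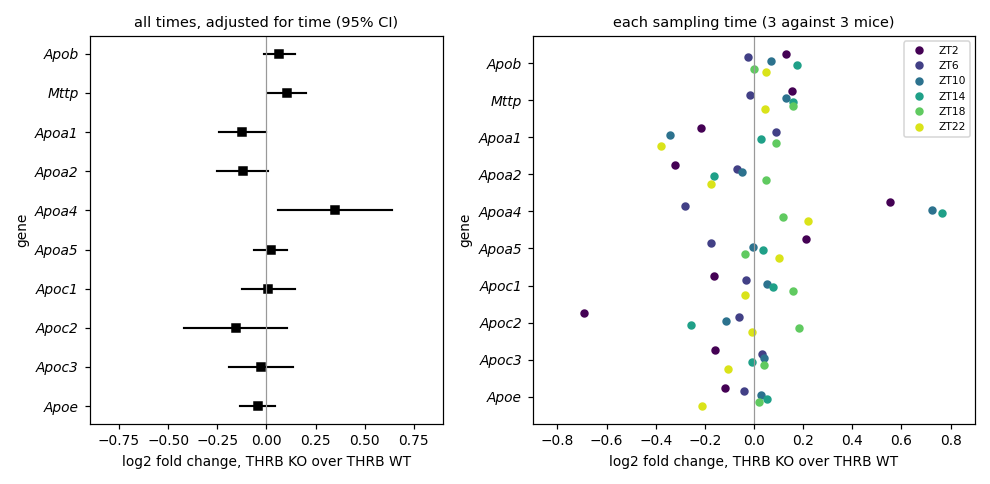
Log2 fold change of THRB KO over THRB WT for the 10 genes; on the left over all times with time in the model (squares, with 95% confidence intervals, 18 against 18 mice), on the right at each sampling time (points, 3 against 3 mice, no error shown). The estimates run from -0.16 for *Apoc2* to 0.35 for *Apoa4*, and the points of *Apoa4*, *Apoc2* and *Apoa1* spread farthest.

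That shared movement was seen after each mouse had been set against the mean of its own genotype and time. Over the 36 libraries, these deviations in log2 CPM had a Pearson correlation of 0.904 between *Apoa2* and *Apoc1*, 0.907 between *Apoc1* and *Apoc3*, 0.872 between *Apoa2* and *Apoe* and 0.849 between *Apoc1* and *Apoe*. *Apob* went the other way, with -0.731 against *Apoa2*. *Apoa5* followed none of them, with correlations between -0.103 and 0.239 with the other 9 genes. Within the cluster on chromosome 9 the correlations ran from -0.275 for *Apoa1* with *Apoa4* to 0.598 for *Apoa4* with *Apoc3*. Within that on chromosome 7 they ran from 0.173 for *Apoc2* with *Apoe* to 0.849 for *Apoc1* with *Apoe*. *Apoa2* shares a chromosome with none of the others. The part of gene position in these correlations was not tested.

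The same libraries also differed in the balance of short against long genes. An index was formed for each library from the median deviation of 261 genes under 1000 bases minus that of 3328 genes over 5000 bases, with the 10 genes left out, and it ran from -0.251 to 0.239. Over the 36 libraries it had a Pearson correlation of 0.882 with the deviation of *Apoa2* (537 bases), 0.867 with that of *Apoc1* (744 bases), 0.864 with that of *Apoe* (2138 bases) and 0.792 with that of *Apoc3* (1014 bases). With *Apob* (13934 bases) it was -0.806 and with *Mttp* (6206 bases) -0.553, while with *Apoa5* (2522 bases) it was -0.052 and with *Apoa1* (1236 bases) 0.369. Both values of a point come from 1 library, and the part of fragment or RNA length in these levels was not tested.

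The index also differed between the letters a, b and c that the labels give the mice of each group, whose meaning is not stated. It was above 0 in 12 of 12 libraries of letter a and in 1 of 12 of letter b. In a fit with genotype, time and letter, 2 of the 10 genes were called for the letter, *Apoc3* (adjusted p = 0.0248) and *Apoc1* (adjusted p = 0.0391), against 5.19% of all tested genes. *Apoc3* was above its group mean in 11 of 12 libraries of letter a, by a mean log2 of 0.21 ± 0.16 (SD, n = 12), and *Apoc1* in 12 of 12, by 0.16 ± 0.11 (SD, n = 12). With the index in the model as a covariate, none of the 10 genes was called between genotypes, and their log2 fold changes lay between -0.17 for *Apoc2* and 0.34 for *Apoa4*. Since the index was taken within each genotype and time, this fit could alter the spread but hardly these fold changes. It cannot show whether the balance of short and long genes bears on the genotype difference. The lowest adjusted p of the 10 was then that of *Apoa2* (log2 fold change -0.12, adjusted p = 0.0918, edgeR).

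**Figure D4:**
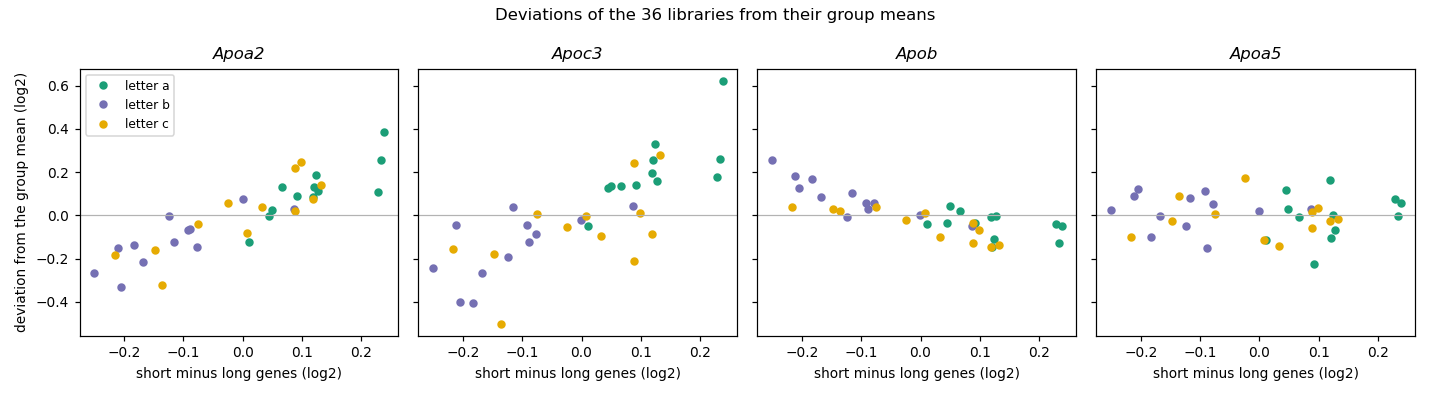
Deviation of 36 libraries from the mean of their genotype and time in log2 CPM (vertical axis) against the index of short minus long genes in log2 (horizontal axis), coloured by the letter of the mouse, for 4 genes. *Apoa2* (r = 0.882) and *Apoc3* (r = 0.792) rise with the index, *Apob* (r = -0.806) falls, and *Apoa5* (r = -0.052) shows no trend.

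Of 59 other genes of lipoprotein assembly, remodelling, uptake and control, 58 were tested and 4 were called between genotypes, 3 higher and 1 lower in THRB KO, against 0.506% and 0.445% of all tested genes. The median log2 fold change of the 58 was 0.02. The list was written from general knowledge with earlier results of these data known, so its shares are a description and not an independent comparison. *Tm6sf2*, an endoplasmic reticulum protein needed to lipidate VLDL, rose from 39.5 ± 6.03 to 48.4 ± 6.11 CPM (SD, n = 18 each; log2 fold change 0.30, SE 0.059, adjusted p = 0.00553). *Foxo1*, a transcription factor restrained by insulin whose targets include *Mttp* and *Apoc3*, rose from 26.1 ± 6.21 to 29.5 ± 5.38 CPM (log2 fold change 0.19, SE 0.043, adjusted p = 0.0215). *Lrp2*, an endocytic receptor better known from the kidney, was low, with 1.70 ± 0.594 against 2.91 ± 1.56 CPM (log2 fold change 0.71, adjusted p = 0.0454). *Saa4*, a minor apolipoprotein of HDL, fell from 259 ± 53.6 to 207 ± 36.2 CPM (log2 fold change -0.32, SE 0.073, adjusted p = 0.0175, edgeR's quasi-likelihood test for each). The calls of *Tm6sf2*, *Foxo1* and *Saa4* held without any single library, with adjusted p up to 0.0405, while that of *Lrp2* was lost in 22 of 36 such fits. In fits that drop all 12 mice of 1 letter, the adjusted p ran from 0.0191 to 0.109 for *Tm6sf2* and from 0.0895 to 0.505 for the other 3.

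By role, 1 of 10 tested genes of assembly and export rose, 1 of 10 of receptors and their degradation, and 1 of 10 transcription factors, and 1 of 10 other apolipoproteins fell. None was called among 11 genes of remodelling and lipolysis, 4 of lipid export and 3 of *Apob* mRNA editing, by which the hepatocytes of mice make a shorter protein from part of the *Apob* transcripts. *Apoc4*, the neighbour of *Apoc1* and *Apoc2*, had 573 ± 62.6 CPM in THRB WT and 533 ± 63.4 CPM in THRB KO mice (adjusted p = 0.468). Of the same list, 28 of 58 were called rhythmic in THRB WT and 26 of 58 in THRB KO mice, 20 of them in both, against 33.1%, 28.9% and 21.6% of all tested genes. The largest amplitudes in THRB WT on the log2 scale were those of *Nr1d1* (2.71, peak at 7.33 h), a clock repressor, *Angptl8* (1.14, peak at 17.8 h), an inhibitor of lipoprotein lipase induced by feeding, and *Abcg8* (1.11, peak at 7.67 h), a canalicular sterol exporter. The amplitude of *Apoa5* was 0.29 on that scale.

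Over the 12 means of genotype and time, the genes most like *Apoa5* among 7776 with a mean of at least 10 CPM were *Pabpc4* (r = 0.981) and *Mfsd2a* (r = 0.979). They had fitted peaks at 11.9 and 12.3 h in THRB WT mice, next to the 12.0 h of *Apoa5*. Like genes were picked on these same means, so for a rhythmic gene a near peak follows from the choice. The amplitude of *Mfsd2a* was 1.504 on the log2 scale, and that of *Pabpc4* 0.26. Over the 36 single libraries the correlation was 0.698 for *Pabpc4* and 0.836 for *Mfsd2a*. The genes most like *Mttp* were *Zfp746* (r = 0.921) and *Arhgap35* (r = 0.899), with fitted peaks at 18.1 and 18.4 h. Those most like *Apoa4* were *Gm2a* (r = 0.963) and *Zfp874a* (r = 0.876), and over the single libraries the correlation of *Apoa4* with *Gm2a* was 0.701 and with *Zfp874a* 0.124. For the other 7 genes the closest matches had r from 0.850 to 0.937. They were picked as the highest of 7776, and *Apoe* was closest to *Pcyt2*, a gene of phosphatidylethanolamine synthesis (r = 0.937), *Apoa2* to *Ppcdc* (r = 0.932) and *Apob* to *Nckap1* (r = 0.8996).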

How the data were processed

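Per the labels, mRNA was selected by poly-T and made into libraries that keep no strand. The authors removed low-quality reads, aligned the rest to GRCm38/mm10 by HISAT2 and obtained a FeatureCounts table. These counts, for 54532 genes in 36 libraries, were deposited without normalization. Versions, annotation release and the treatment of reads that match several genes are not given in the sources used here. Each library is a separate mouse, and no 2 libraries of a group were repeats (chi-square per gene of 21.7 or more).

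From the counts, genes whose sum reached 100 were scaled by TMM and tested by edgeR's quasi-likelihood method (version 4.0.16, in R 4.3.3 with limma 3.58.1). Models held genotype alone, genotype and sampling time, their interaction, 12 groups, or 24-h sine and cosine terms. P-values were adjusted by Benjamini-Hochberg over 17994 genes, with a threshold of 0.05. With 3 mice against 3 an exact permutation test cannot go below 0.1. Amplitudes and peaks came from sine fits to vst values of DESeq2 1.42.0, and log2 CPM used a prior count of 2. TPM used the exon lengths of the count table. The edgeR fits without block, letter or index, and the sine fits on log2 CPM, were tested on simulated data.

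The members, gene lists and tests were chosen with earlier results of these data known. Other genes are named where they overlap a member, check genotype or time, were called for genotype in the lipoprotein list or had its 3 largest amplitudes in THRB WT, or were among the 2 genes most like a member; *Apoc4* was added as a neighbour, and *Fabp2* and *Vil1* as intestinal markers, after values were seen. Alternatives were DESeq2, its size factors, total counts, other filters, time as a factor, a replicate block and leaving out libraries. The fits with letter or length index were added after the data were seen.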

Additional observations from a re-analysis of the deposited data

How the results depend on the processing

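None of the 10 genes was called between genotypes with DESeq2, other scalings or other filters, and with single libraries left out the exception was *Apoa4*, for 1 called gene without WT_ZT6 replicate b (0 to 1 over the 36 fits). In those fits 133 to 236 genes were called with time in the model and 17 to 29 summed over single times. Counts over all genes moved more under other settings. DESeq2 called 99 genes with times pooled, 306 with time in the model and 54 summed over single times (21 in edgeR, and 43 with no filter on low counts). With 1 letter of mice left out, which removes 12 of the 36 libraries, 16 to 24 genes were called with times pooled, 40 to 81 with time in the model and 7 to 18 summed over single times. In the same fits 3113 to 4006 genes were rhythmic in THRB WT and 2343 to 3188 in THRB KO, where 0 to 1 of the 10 genes passed, and the mesor (the mean of the fitted wave) differed for 31 to 46 genes (116 with all libraries) and the peak for 2 to 4 (9 with all libraries). Of the 10 genes 1 was rhythmic in THRB KO with total counts as scaling and 1 with no filter on low counts. Without a letter the log2 fold change of *Apoc1* ran from -0.0415 to 0.0904 adjusted for time and from -0.0405 to 0.0913 with times pooled, and that of *Apoc3* from -0.0951 to 0.0601 and from -0.0945 to 0.0561. Without a single library, adjusted for time, they ran from -0.0237 to 0.0294 and from -0.0787 to 0.00306. With letter or index in the model, 275 and 409 genes were called for genotype, and none of the 10.

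Whether the letters pair the mice of both genotypes was checked by the correlation of their deviations from the group means. Over 18 pairs it ran from -0.082 through a median of 0.272 to 0.425, and it was over 0.1 in 15. The labels do not say what a letter marks and not every pair was over 0.1, so the fits in the report hold no letter term unless one is named. Mice of 1 letter did share part of their deviations across genotypes, with 31 of 36 libraries closest to their own letter. With the replicate block, 387 genes were called with times pooled and 387 with time in the model, 36 summed over single times and 374 for the mesor, and none of the 10 genes. Counting error was at most 1.9% of the median count for 9 of the genes and 8.01% for *Apoc2*, while its coefficient of variation over the mice was 22.8% (THRB WT) or 35.8% (THRB KO). The causes of these shifts were not tested.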
